A study of Homo sapiens with 6 samples.

Results

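Notch signalling genes were followed in PA1, a cell line of human ovarian teratocarcinoma, with and without knockdown of the pluripotency transcription factor SOX2. The 10 genes described here encode receptors (NOTCH1, NOTCH2, NOTCH3), ligands (DLL1, DLL3, JAG1), target genes (HES1, HEY1, HEY2) and a modifying enzyme (LFNG). They were taken by symbol from a list of pathway genes, and all 10 were among the 59653 symbols of the count table. Both groups were the same wild-type line: 3 libraries came from cells given a negative-control small interfering RNA (siRNA) and 3 from cells given siRNA against SOX2. The design text names a pair of SOX2 siRNAs without saying whether they were mixed. In both groups transfection was done on adherent cells, which after 24 h were placed in dishes that prevent attachment and were harvested 72 h later. Nothing in the labels says that replicates were separate cultures, so p-values measure the spread between these libraries, which may be technical.

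Notch receptors are single-pass membrane proteins that are activated by Delta-like or Jagged ligands on a neighbouring cell. Ligand binding lets ADAM proteases and then gamma-secretase cut the receptor, and the freed intracellular domain enters the nucleus, where it joins the DNA-binding protein RBPJ and a Mastermind co-activator. Its best known direct targets are among the HES and HEY genes. Several of these encode basic helix-loop-helix repressors that hold back differentiation in neural progenitors or pattern the somites. Fringe enzymes such as LFNG add sugars to the receptor and thereby change which ligands it answers to.

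Library totals ranged from 25152313 to 32753184 counts, and 3 counts, used as the floor of detection, equalled 0.0909 to 0.12 CPM, the count scaled to an equal library size. SOX2 itself was at 245, 265 and 256 CPM in control libraries and at 51.8, 54.9 and 50.6 CPM after SOX2 siRNA, in the direction of the labels. Of 12 markers of pluripotent or embryonal cells, 10 averaged at least 1 CPM, and without SOX2 the other 11 summed to 2780 to 2840 CPM in both groups. Their members moved both ways: POU5F1, LIN28A, LIN28B and DNMT3B were called higher and PODXL, besides SOX2, lower. TDGF1 and ZFP42, which often mark such cells, had at most 3 counts in any library. Some markers of other cell types also differed. The 8 endothelial markers summed to 132 to 136 and 101 to 105 CPM, 6 stromal markers to 324 to 375 and 491 to 536 CPM, and 6 neuronal markers to 25.7 to 33.2 and 48.6 to 51.2 CPM, control first. Of the endothelial markers 5 were called lower, PECAM1 the most abundant, and EGFL7 higher. The stromal sum was carried by COL1A1 (282 to 358 CPM) and PDGFRB (28.6 to 106 CPM), while COL1A2 and ACTA2 were not called. The neuronal sum was almost all TUBB3 (28.9 to 48.5 CPM), SYP was also higher, and DCX, STMN2, ELAVL3 and ELAVL4 had at most 5 counts. CLDN5 and HBB were at 0 in all 6 libraries, and PTPRC, the defining blood marker, reached at most 3 counts. LYZ, ALB and EPCAM, which mark other or epithelial cells, varied between libraries of both groups, with LYZ at 61 to 481 counts in control and 48 to 542 after SOX2 siRNA. The part of these markers in the results below was not tested. In bulk RNA, more cells with a transcript and more transcript per cell cannot be told apart.

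After SOX2 knockdown the ligand genes DLL3 and JAG1, the target genes HEY1 and HEY2, the fringe gene LFNG and, by a small margin, the receptor gene NOTCH1 were higher, whereas HES1 and NOTCH2 were lower. The increases ran from 1.13-fold for NOTCH1 to 3.66-fold for DLL3. The decreases were 1.22-fold for HES1 and 1.1-fold for NOTCH2. NOTCH3 did not pass the test and DLL1 was too scarce to be tested. In all, 6 of the 9 tested members were called higher and 2 lower by edgeR's quasi-likelihood test (adjusted p under 0.05, Benjamini-Hochberg over 17592 genes). Over all tested genes 14.8% were called higher and 13.4% lower, 28.2% in either direction. The members and the role lists below were chosen with earlier results of these data known. Their shares beside those of all genes are therefore a description. The control and SOX2 siRNA values did not overlap for 8 of the 9 tested members, against 41.8% of all tested genes. The median log2 fold change was 0.568 over the tested members and -0.000851 over all tested genes. The tested members had at least 26 counts in every library of both groups, so none entered the test through 1 group alone.

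**Figure D1:**
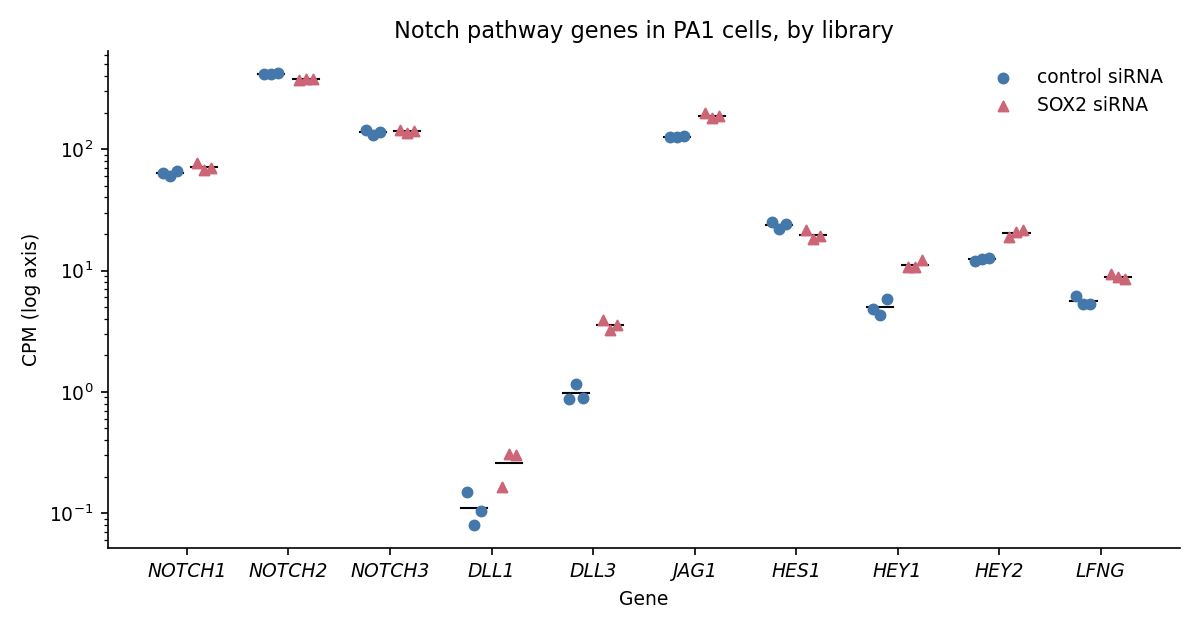
Expression of the 10 Notch pathway genes in each library, in CPM on a log axis. Circles are control siRNA libraries, triangles SOX2 siRNA libraries and black lines group means; DLL3 shows the widest separation, from 0.978 to 3.57 CPM on average, and NOTCH3 overlaps.

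Levels can be compared between genes only after division by transcript length. Per kilobase of merged exons, the control order was NOTCH2 (25.9 ± 0.264 CPM per kilobase, SD, n = 3), JAG1 (21.3 ± 0.402), NOTCH3 (15.9 ± 0.746), HES1 (15.0 ± 0.914), NOTCH1 (6.79 ± 0.296), HEY2 (4.52 ± 0.146), HEY1 (1.94 ± 0.303), LFNG (1.75 ± 0.155), DLL3 (0.407 ± 0.0646) and DLL1 (0.0352 ± 0.0115). The libraries of neighbours overlapped for NOTCH3 and HES1, and for HEY1 and LFNG. After SOX2 siRNA, JAG1 stood first at 31.6 ± 1.53 CPM per kilobase, ahead of NOTCH2 at 23.5 ± 0.202. With the longest transcript as the length NOTCH2 stayed first in both groups, because its merged exons (16074 bases) are longer than its longest transcript (11389 bases). In control that length also placed LFNG above HEY1, the reverse of the order given. NOTCH1 (7.70 ± 0.472) and HEY2 (7.46 ± 0.465) overlapped after knockdown. By merged exons the other places were as in control, and the overlap of NOTCH3 with HES1 and of HEY1 with LFNG was no longer seen.

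Among the 10 genes, the 3 receptor genes had the smallest changes of those tested. NOTCH2, on chromosome 1 (119911553 to 120069626, minus strand, GRCh38), was the most abundant of them. It was at 416, 413 and 421 CPM in control libraries and 374, 379 and 380 CPM in those with SOX2 siRNA. Every knockdown library lay below every control library, and the fall was small with little spread between libraries (log2 fold change -0.14, SE 0.0319; edgeR adjusted p = 0.00265). NOTCH2 shares sequence with the human-specific NOTCH2NL copies, whose counts made up 8.96% to 10.5% of the combined total in each library. How reads were divided between NOTCH2 and these copies was not tested. That share therefore does not bound the error in the NOTCH2 count.

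NOTCH1 lies on chromosome 9 (136494433 to 136545786, minus strand). Its values were 63.6, 60.2 and 65.7 CPM in control and 76.5, 67.9 and 70.5 CPM after SOX2 siRNA. The lowest knockdown library stood only just above the highest control (log2 fold change 0.18, SE 0.0499; edgeR adjusted p = 0.0118). That call was lost without control replicate 2 (0.15, edgeR adjusted p = 0.076) and without SOX2 siRNA replicate 1 (0.13, edgeR adjusted p = 0.0597).

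NOTCH3, on chromosome 19 (15159038 to 15200981, minus strand), was at 144, 131 and 138 CPM in control and 145, 135 and 142 CPM after SOX2 siRNA. The groups overlapped almost completely, with a 95% interval of the log2 fold change from -0.06 to 0.12 (edgeR adjusted p = 0.661). NOTCH4, a receptor outside the 10 and known from endothelium, was near the low end at 1.94 ± 0.235 and 2.75 ± 0.22 CPM (SD, n = 3). Its call (log2 fold change 0.51; edgeR adjusted p = 0.0305) was lost in 5 of 15 alternatives, and its exons overlap those of GPSM3 on the same strand.

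Summed per kilobase, the 4 receptor genes gave 48.9 ± 1.11 CPM in control libraries and 47.8 ± 0.874 CPM with SOX2 siRNA (SD of 3 libraries; exact two-sided permutation p = 0.3). Within that sum the NOTCH2 share fell from 53.0% ± 0.91 to 49.1% ± 1.21 without overlap, and the NOTCH1 share went from 13.9% ± 0.344 to 16.1% ± 0.715 (exact permutation p = 0.1 for each, the smallest that 3 against 3 libraries allow). The log2 ratio of NOTCH1 to NOTCH2 counts, which does not depend on library scaling, was -2.72 ± 0.0497 in control and -2.40 ± 0.0986 after knockdown. The ratio of NOTCH3 to NOTCH2 was -1.60 ± 0.0636 and -1.42 ± 0.0601. Neither ratio overlapped between groups (exact permutation p = 0.1 for each, 0.15 adjusted over 6 ratios).

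The 3 canonical ligand genes that could be tested, DLL3, JAG1 and JAG2, were all called higher (100%, against 14.8% of all tested genes). JAG1, encoding the Jagged ligand, lies on chromosome 20 (10637684 to 10673999, minus strand). It was at 125, 125 and 129 CPM in control and 197, 179 and 187 CPM after SOX2 siRNA. The groups stood far apart relative to their spread, a 1.48-fold rise (log2 fold change 0.57, SE 0.0403; edgeR adjusted p = 8.73e-09). Its exons overlap those of an antisense gene, AL050403.2, and whether counting used strand is not given in the sources used here.

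DLL3, on chromosome 19 (39498895 to 39508481, plus strand), encodes a divergent Delta-like protein that mostly stays inside the cell and dampens Notch signalling in the same cell. It was counted 29, 29 and 26 times in control libraries and 118, 105 and 106 times in SOX2 siRNA libraries, or 0.879, 1.16 and 0.899 against 3.91, 3.25 and 3.55 CPM. DLL3 was the member with the largest change, 3.66-fold (log2 fold change 1.87, SE 0.183; edgeR adjusted p = 4.74e-07), and 0.83% of tested genes had a larger absolute log2 fold change. Even after the rise it remained far below JAG1 per kilobase.

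DLL1, on chromosome 6 (170282206 to 170306565, minus strand), encodes the Delta ligand best known from somites and neural progenitors. It had 5, 2 and 3 counts in control and 5, 10 and 9 in SOX2 siRNA libraries, below the filter for testing and close to the floor. In the edgeR fit without the filter its log2 fold change was 1.16 (SE 0.604, edgeR adjusted p = 0.235), so no difference was detectable at this depth. DLL4, the endothelial Delta ligand, was as scarce, with 2, 1 and 1 against 5, 6 and 4 counts. JAG2, the other Jagged ligand, was called higher, from 4.61 ± 0.521 to 8.35 ± 0.461 CPM (SD of 3 libraries; log2 fold change 0.85, edgeR adjusted p = 1.01e-05), although its exons overlap those of AL512356.1 on the same strand.

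The 5 canonical ligand genes together went from 22.6 ± 0.366 to 34.7 ± 1.62 CPM per kilobase, 1.54 times the control sum (exact permutation p = 0.1). JAG1 made up 94.5% ± 0.324 of this sum in control and 91.2% ± 0.245 after knockdown, while the DLL3 share went from 1.81% ± 0.305 to 4.27% ± 0.199 (SD of 3 libraries; exact permutation p = 0.1 for each). Ratios to the scarce DLL1 were too noisy to separate the groups: the log2 ratio of DLL3 to DLL1 was 2.97 ± 0.57 and 3.75 ± 0.595, and that of JAG1 to DLL1 9.97 ± 0.378 and 9.46 ± 0.537 (exact permutation p = 0.3 for each, 0.3 adjusted over 6 ratios).

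**Figure D2:**
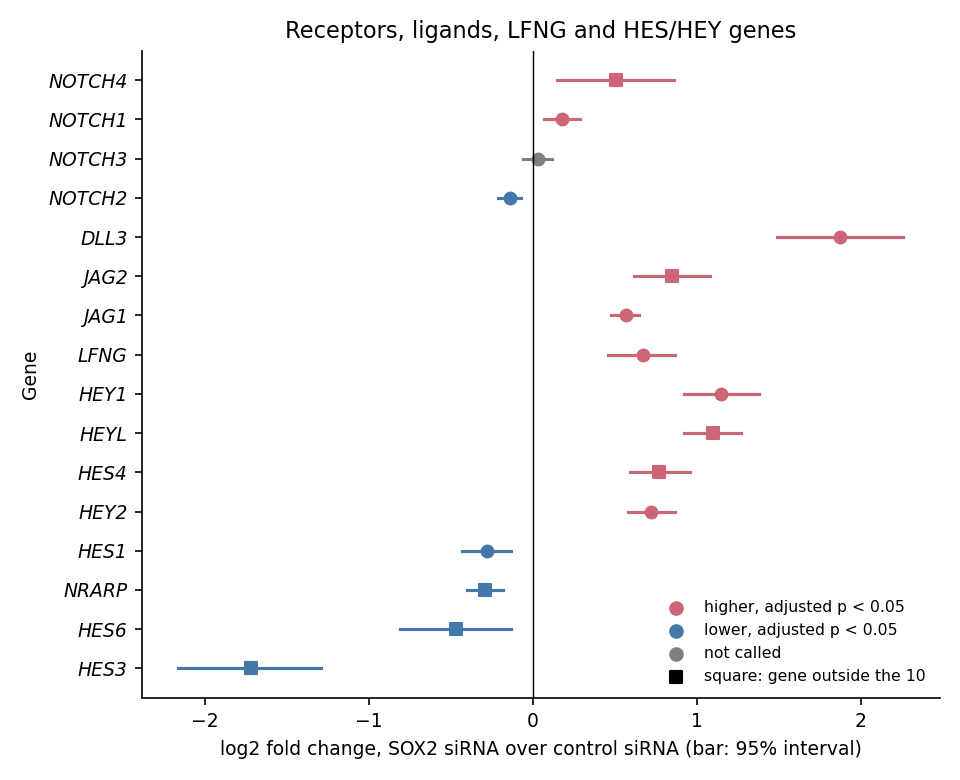
Log2 fold change of each tested receptor, ligand and HES or HEY gene and of LFNG and NRARP, SOX2 siRNA over control siRNA, with 95% intervals from the edgeR fit. Circles are the members and squares related genes; all 3 tested ligands lie right of 0 and the HES and HEY genes lie on both sides.

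The target genes did not move together. HES1, on chromosome 3 (194136145 to 194138732, plus strand), encodes the repressor most widely used as a readout of Notch. It was at 24.9, 22.1 and 24.0 CPM in control and 21.4, 18.2 and 19.1 CPM after SOX2 siRNA. The highest knockdown library came close to the lowest control library without reaching it (log2 fold change -0.28, SE 0.0695; edgeR adjusted p = 0.00543). Across the 15 alternatives its log2 fold change stayed between -0.35 and -0.23, called in each.

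HEY1, which encodes a HES-related repressor active in vessels, heart and neural progenitors, had 4.82, 4.31 and 5.85 CPM in control and 10.6, 10.7 and 12.1 CPM after SOX2 siRNA. Its lowest knockdown library was well above its highest control library, a 2.22-fold rise (log2 fold change 1.15, SE 0.109; edgeR adjusted p = 3.42e-07). HEY2, on chromosome 6 (125747664 to 125761269, plus strand), its close relative with a role in heart chambers and arteries, had 12.0, 12.5 and 12.8 CPM in control and 19.0, 20.9 and 21.5 CPM after knockdown. HEY2 rose 1.65-fold, again with a clear gap between the groups (log2 fold change 0.72, SE 0.0693; edgeR adjusted p = 3.87e-07).

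The opposite course of HES1 and HEY1 shows in their ratio within each library. The log2 ratio of HES1 to HEY1 counts was 2.37, 2.35 and 2.04 in control and 1.01, 0.77 and 0.65 after SOX2 siRNA, a difference of -1.44 between the means (exact permutation p = 0.1, 0.15 adjusted over 6 ratios). HEY1 also gained on HEY2, with log2 ratios of -1.32 ± 0.201 and -0.88 ± 0.0793 (exact permutation p = 0.1, 0.15 adjusted).

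Further HES and HEY genes were split in the same way. HEYL, the third HEY gene, was at 6.88, 6.51 and 6.57 CPM in control and 13.7, 13.8 and 15.3 CPM after SOX2 siRNA (log2 fold change 1.10, SE 0.0821; edgeR adjusted p = 1.71e-08). HES4 went from 6.18 ± 0.443 to 10.6 ± 0.328 CPM (log2 fold change 0.77; edgeR adjusted p = 3.75e-06). On the other side, HES3 fell from 2.72 ± 0.232 to 0.818 ± 0.161 CPM (log2 fold change -1.72; edgeR adjusted p = 5.26e-06). NRARP, a Notch target that encodes a feedback inhibitor of the nuclear complex, fell from 42.7 ± 2.26 to 35.0 ± 0.958 CPM (log2 fold change -0.29; edgeR adjusted p = 3.51e-04). HES6, named after its values were seen, was lower by a smaller margin (log2 fold change -0.47; edgeR adjusted p = 0.0391). Of this list of 11, which includes the 3 member targets, 8 were tested. Of these, 4 were called higher and 4 lower, 50% each against 14.8% and 13.4% of all tested genes. HES2, HES5 and HES7 had at most 9 counts in any library and were not tested.

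Counted per kilobase, 7 HES and HEY genes (HES1, HES4, HES5, HES6, HEY1, HEY2 and HEYL) summed to 31.2 ± 0.861 CPM without and 39.6 ± 1.21 CPM with SOX2 siRNA (SD of 3 libraries, exact permutation p = 0.1). The genes are summed by family, and what their products repress was not tested. HES1 made up 49.4%, 46.3% and 48.8% of that sum in control and 34.0%, 30.1% and 29.7% after knockdown. The HEY1 share went from 6.21% ± 0.932 to 10.9% ± 0.61, the HEY2 share from 14.5% ± 0.765 to 18.8% ± 1.29 and the HEYL share from 5.83% ± 0.0653 to 9.82% ± 0.439, none overlapping (SD of 3 libraries; exact permutation p = 0.1 for each). The HES4 share rose from 19.1% ± 1.44 to 25.7% ± 0.328, the largest gain of the 7 (exact permutation p = 0.1). The HES6 share fell from 6.14% ± 0.821 to 3.48% ± 0.53 (exact permutation p = 0.1). These 7 leave out HES3. With HES3 added, a choice made after its values were seen, the sums were 35.1 ± 1.19 and 40.8 ± 0.978 CPM per kilobase, 1.16 times control in place of 1.27 times. The HES1 share was then 42.8% ± 1.27 and 30.4% ± 2.3, and that of HES3 itself 11.1% ± 0.574 and 2.89% ± 0.641 (exact permutation p = 0.1 for each).

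**Figure D3:**
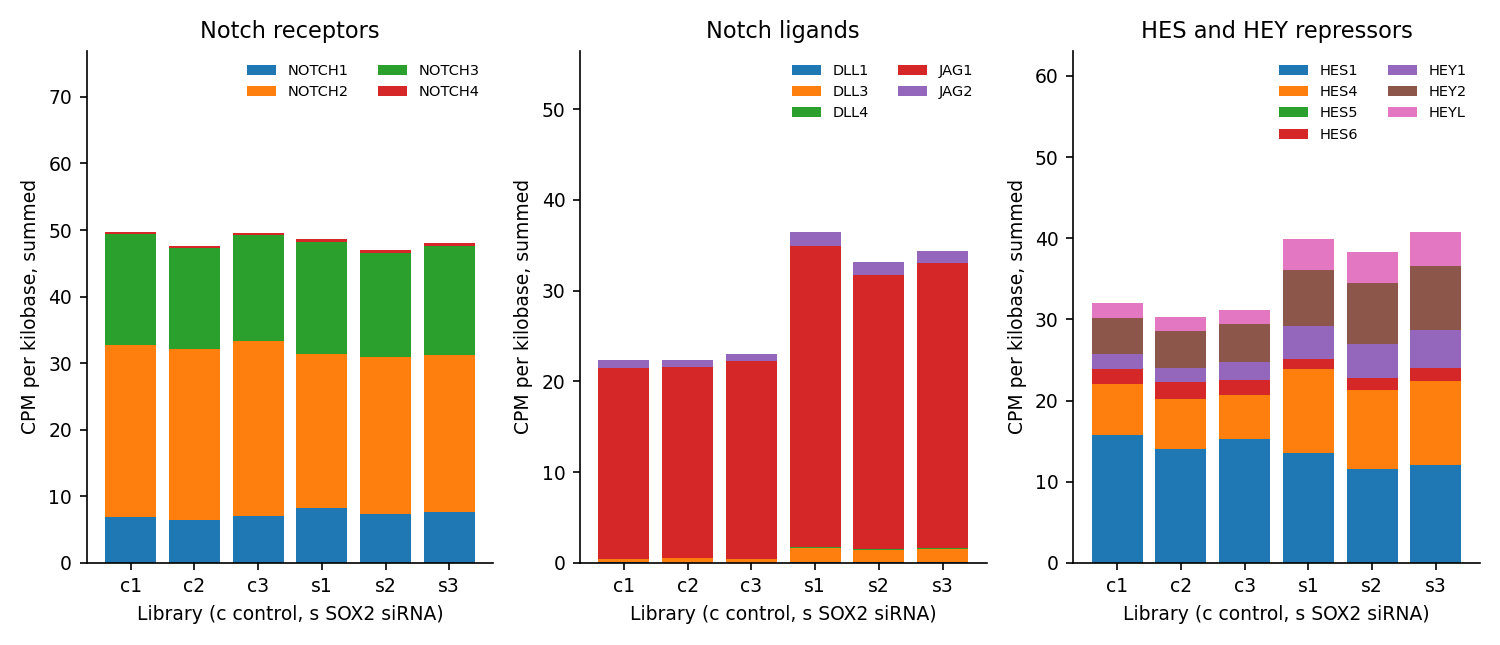
Summed level of the receptor, ligand and 7 HES and HEY genes (HES3 not included) in each library, in CPM per kilobase of merged exons, stacked by gene (c1 to c3 control siRNA, s1 to s3 SOX2 siRNA). Receptor bars have like heights in both groups, and ligand bars are taller after SOX2 siRNA and almost all JAG1. The HES1 and HES6 parts of the HES and HEY bars shrink while those of HES4, HEY1, HEY2 and HEYL grow.

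The direct link from Notch to these targets runs through RBPJ, so the letters TGGGAA (the core that RBPJ binds; TTCCCA on the other strand) were searched in the 250 bases upstream of RefSeq gene starts (GRCh38.p14). The sequences show each match upstream of the HES and HEY genes that were searched. Matches lay in HES1 and HES3, which fell, and in HEY2, HEYL and HES4, which rose. Capitals mark the matches, and each sequence reads 5′ to 3′ on the strand of the gene.
HES1 (chr3:194136028-194136127, plus strand): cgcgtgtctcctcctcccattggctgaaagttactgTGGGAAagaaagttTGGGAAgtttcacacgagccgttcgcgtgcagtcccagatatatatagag
HES3 (chr1:6244053-6244082, plus strand): gaggtggggagcTTCCCAgtgcgtcctccc
HEY2 (chr6:125749407-125749436, plus strand): tccgcggccgcgTTCCCAcgcctcggctgg
HEYL upstream match (chr1:39639804-39639833, minus strand): ccgcctagggccTTCCCAcggctcggcggc
HEYL downstream match (chr1:39639725-39639754, minus strand): aggaaagggcccTGGGAAagggcggtggcg
HES4 (chr1:1000156-1000185, minus strand): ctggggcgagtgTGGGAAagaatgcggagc

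In HES1 the matches lie at bases -84 to -79 and -70 to -65 from the gene start, on the same strand and 8 bases apart. HEYL also has a pair, on opposite strands and 73 bases apart, and HES3, HEY2 and HES4 have 1 match each. The core occurs in 20.8% of the 35116 promoter windows of this length in the RefSeq table, and a pair or more in 2.9%. The longer form GTGGGAA, which contains the core, occurs in 5.43% of windows and was found in HES1, HEY2, HEYL and HES4. Of the 7 members with a window in the table, 3 held the core: HES1, HEY2 and LFNG, the last in 1 of its 2 windows. No core match lay in the windows of JAG1, NOTCH1, NOTCH2 or NOTCH3. DLL1, DLL3 and HEY1 were not matched to a window, and HES2, HES5 and HES7 were not searched.

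The SOX-type letters ACAATG, searched on both strands and held by 9.29% of all windows, occurred upstream of HES4, NOTCH4 and NRARP. The second SOX form ACAAAG, held by 13.7%, occurred upstream of HES6. The letters CACGCG, held by 9.72%, to which HES and HEY proteins can bind, occurred at a pair of places upstream of HES1 and once each upstream of JAG2 and DLL4. The letters CACGTG, held by 6.34%, which reads the same on both strands, was in none of the 16 windows examined. A match is a description of letters and not evidence of binding.

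**Figure D4:**
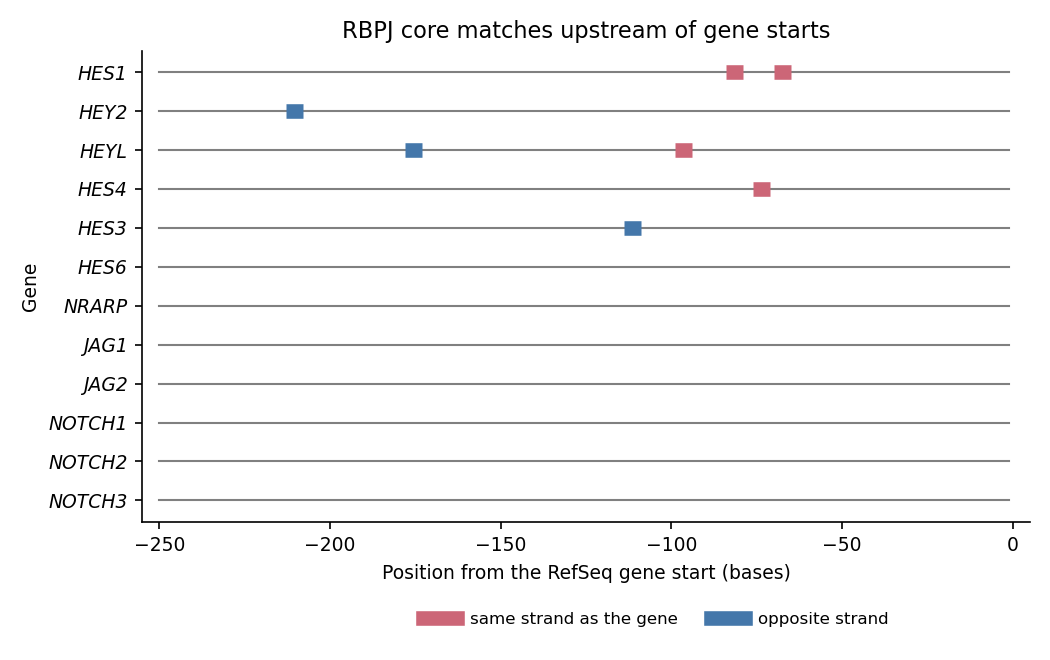
Matches of the RBPJ core TGGGAA in the 250 bases upstream of RefSeq gene starts, drawn to scale as distance from the start. Each line is 1 window; HES1 has a close pair, HEYL a wide pair, and HES6, NRARP, JAG1, JAG2 and the receptor genes NOTCH1, NOTCH2 and NOTCH3 have none.

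LFNG, on chromosome 7 (2512529 to 2529177, plus strand), encodes lunatic fringe, which extends O-fucose sugars on Notch and favours Delta over Jagged ligands. Its values were 6.18, 5.35 and 5.29 CPM in control and 9.34, 8.91 and 8.54 CPM after SOX2 siRNA. All knockdown libraries lay well above control, a 1.59-fold rise (log2 fold change 0.67, SE 0.0982; edgeR adjusted p = 5.69e-05). Its relatives MFNG (manic fringe) and RFNG (radical fringe) did not pass the test, with log2 fold changes of 0.39 and 0.10 (edgeR adjusted p = 0.41 and 0.365). Exons of RFNG overlap those of GPS1 on the opposite strand. Per kilobase LFNG made up 19.9% ± 0.959 of fringe transcripts in control and 26.8% ± 0.327 after knockdown (SD of 3 libraries; exact permutation p = 0.1).

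The rest of the pathway was taken from lists of 74 genes by role, of which 65 were tested; 23 (35.4%) were called higher and 12 (18.5%) lower, against 14.8% and 13.4% of all tested genes, with a median log2 fold change of 0.0858. Among the 11 genes for Notch glycosylation, LFNG included, 6 were higher (54.5%) and 1 lower (9.09%), beside the same all-gene shares. EOGT, which adds N-acetylglucosamine to Notch, rose 2.06-fold, from 44.4, 41.2 and 49.3 to 88.8, 91.4 and 97.3 CPM (log2 fold change 1.04; edgeR adjusted p = 6.08e-09), with an antisense gene, AC109587.1, over its exons. The xylosyltransferase genes parted: GXYLT1 and XXYLT1 rose (log2 fold changes 0.33 and 0.22) and GXYLT2 fell from 39.3 ± 2.14 to 22.8 ± 0.774 CPM (SD of 3 libraries; log2 fold change -0.78, edgeR adjusted p = 9.27e-09). Exons of GXYLT2 overlap those of PPP4R2 on the same strand. POGLUT3, an O-glucosyltransferase gene, had a log2 fold change of 0.15, a call lost without control replicate 3 (edgeR adjusted p = 0.0515).

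Of 9 genes for cleavage of Notch, 3 were higher and 3 lower, 33.3% each against 14.8% and 13.4% of all tested genes. Among gamma-secretase genes, PSEN2 was lower (-0.29), and of the APH1 subunit genes APH1A was higher (0.28) and APH1B lower (-0.52). FURIN, the protease that matures the receptor, was higher (0.23), ADAM17 was lower (-0.27), and ADAM10, the main ligand-dependent protease, averaged 343 ± 12.9 CPM without and 344 ± 1.64 CPM with SOX2 siRNA (SD of 3 libraries; edgeR adjusted p = 0.923). Exons of ADAM10, ADAM17 and APH1A overlap genes on the opposite strand.

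In the nucleus RBPJ averaged 126 CPM in both groups, with a 95% interval of its log2 fold change from -0.12 to 0.11 (edgeR adjusted p = 0.975). Of 9 genes for the activating complex, 3 were called (33.3%), close to the 28.2% of all tested genes, each of them higher: the Mastermind genes MAML2 and MAML3 (log2 fold changes 0.46 and 0.37; edgeR adjusted p = 5.04e-06 and 6.19e-05) and the acetyltransferase gene KAT2B, from 1.76 ± 0.0361 to 3.79 ± 0.414 CPM (SD, n = 3). Of 12 tested genes for the repressing side, 3 were called (25%), below the 28.2% of all tested genes, with HDAC1 and TLE1 among the higher (0.53 and 0.35). Exons of MAML2 and MAML3 overlap genes on the opposite strand. HDAC1, a histone deacetylase with many other roles, went from 119 ± 1.32 to 172 ± 4.27 CPM (SD of 3 libraries; edgeR adjusted p = 5.28e-09).

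Genes for trafficking and ubiquitination of Notch gave 2 higher (15.4%, near the 14.8% of all tested genes) and 4 lower (30.8% against 13.4%) of 13 tested. DTX4, a Deltex ubiquitin ligase gene, fell from 18.4 ± 1.48 to 11.6 ± 0.847 CPM (SD of 3 libraries; log2 fold change -0.67, edgeR adjusted p = 4.76e-06). Exons of DTX4, DTX3L, FBXW7 and MFAP5 also overlap genes on the opposite strand. ITCH and AAK1 were lower (-0.20 and -0.13). The calls of DTX3 (0.18), DTX3L (-0.17) and FBXW7 (0.13) were lost in 5, 6 and 11 of 15 alternatives. MIB1, the ligase that most ligands depend on, averaged 288 ± 18.5 CPM without and 283 ± 7.64 CPM with SOX2 siRNA (SD of 3 libraries; edgeR adjusted p = 0.735). Of 8 non-canonical ligands 5 were tested, 3 called higher (60%) and 1 lower (20%), against 14.8% and 13.4% of all tested genes. MFAP2, DLK1 and EGFL7 were higher (0.21, 0.19 and 0.34), the last in 10 of 15 alternatives. MFAP5 was lower (-1.16, edgeR adjusted p = 0.0398), a call that was lost in 9 of 14 alternatives, among them the replicate block (edgeR adjusted p = 0.0531).

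**Figure D5:**
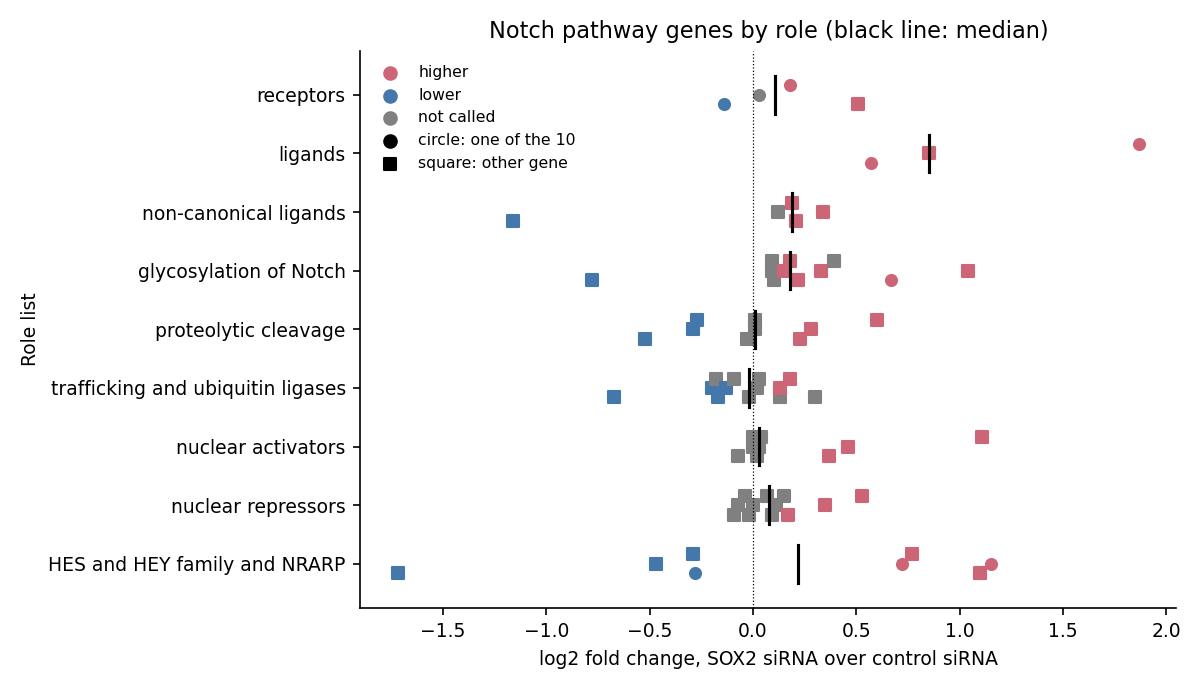
Log2 fold change of each tested Notch pathway gene by role, SOX2 siRNA over control siRNA; red is called higher, blue lower and grey not called, circles are the members and black lines are list medians. Ligands lie to the right of 0, and most nuclear genes lie near 0.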

How the data were processed

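Messenger RNA was sequenced in 6 PA1 libraries, prepared with a poly(A) capture kit per the labels' protocols. The deposited values are raw counts per gene symbol, 1 column per library. The submitters' processing notes name bcl2fastq 2.20.0, STAR 2.7.3a, Salmon 0.14.1, DESeq2 1.28.1 and GRCh38.p13, with no role or order. The annotation, the strand setting and whether counts are rounded estimates are not given in the sources used here; if reads were shared out between similar genes, counts of NOTCH2 and its copies depend on that step.

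From these counts, R 4.3.3 with edgeR 4.0.16 kept genes by filterByExpr (minimum count 10), scaled libraries by TMM (factors 0.991 to 1.01) and tested group with the quasi-likelihood F-test, robust, adjusted by Benjamini-Hochberg over 17592 genes, threshold 0.05. At least 99.89% of counts fell in tested genes. CPM uses TMM-scaled sizes. Single values were compared by exact two-sided permutation, which with 3 against 3 cannot go below 0.1. Ratios have 0.5 counts added. Replicates of a group differed beyond counting noise (chi-square per degree of freedom 2.87 to 6.43). Floors cover counting error only, since PCR copies are not independent molecules.

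Positions, lengths and exon overlaps come from GENCODE 29 (GRCh38), matched by symbol for 93 of the 95 genes examined; it need not be the authors' annotation.

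The members and lists were chosen with earlier results of these data known. Named are the members, SOX2, every called gene of a role list of 6 or fewer calls (otherwise the 6 with the smallest p, or the highest expressed where none is called), and the 3 genes most correlated with the member of largest change. RBPJ, ADAM10, MIB1, MFNG, RFNG, HES6, the NOTCH2NL copies, scarce relatives and the cell markers fall outside this rule and were named after their values were seen. Some genes that meet the rule are left out of the text. Alternatives were other scalings (DESeq2 1.42.0 size factors, upper quartile, totals), no filter beyond 1 count and 10 counts in each library. Others were limma-voom (limma 3.58.1), the Wald test of DESeq2, robust=FALSE, a replicate block and each library left out. For shares, counts not divided by length and NOTCH2NL counts added were used. Also used for shares, chosen after seeing the data, were the longest transcript as the length and HES3 added to the HES and HEY genes. For ratios, 2 counts were added. No library was left out of the reported values.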

Additional observations from a re-analysis of the deposited data

How the results depend on the processing

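The members called higher numbered 6 and those called lower 2 under each alternative except 2 fits that left out a library and lost NOTCH1 (5 higher); the same genes were called otherwise. Of 135 values for 9 tested members, 132 kept their direction and side of the threshold. NOTCH3, which was not called, ranged from -0.0045 to 0.06 when 1 library was left out, changing sign without control replicate 2. The 6 ratios and the NOTCH2 share, each under its alternatives, moved by less than the replicate spread; the other shares of receptors and ligands were not recomputed. The HES1 share of the summed HES and HEY genes differed by -16.9 points, and by -12.4 with HES3 added (chosen after seeing the data). The share of JAG1 among ligands differed by -1.83 points with counts not divided by length, against -3.27, and the LFNG share of fringes rose by 8.52 points in the same way and by 7.74 with the longest transcript as the length (chosen after seeing the data), against 6.84. Calls over all genes ranged from 3760 (without SOX2 siRNA replicate 2) to 5212; DESeq2's Wald test gave 3923. Upper-quartile scaling moved the median of all genes to -0.0211. Over 42 named genes, 44 of 629 values lost their call; the cause was not tested. With the replicate block 5177 genes were called, and 6 members higher and 2 lower. Same-numbered libraries correlated at 0.0868, -0.0377 and -0.0311 in their deviations from group means. Only replicate 1 correlated best with its own number. With so few libraries these values cannot exclude pairing, and the labels give only the shared numbers. Depth limits DLL1, DLL4, HES2, HES5 and HES7, which had at most 10 counts in any library.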

Other observations

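Proneural and other neural lineage genes, taken here as repressed by HES factors in neural progenitors, were close to silent in both groups. Of 10 such genes, none was tested, none had more than 3 counts in any library, and 4 (NEUROG1, NEUROD1, OLIG1 and OLIG2) had 0 counts in all 6. No difference was detectable at this depth.

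Among the NOTCH2NL copies, NOTCH2NLC was lower after SOX2 siRNA, from 26.0 ± 3.64 to 21.4 ± 0.828 CPM (SD of 3 libraries; log2 fold change -0.28, edgeR adjusted p = 0.0424), and NOTCH2NLA was not called (-0.05, edgeR adjusted p = 0.661). NOTCH2NLB had 78, 69 and 13 counts in control and 93, 91 and 67 in SOX2 siRNA libraries; control replicate 3, the low one, had 775 counts of NOTCH2NLC, and how reads were divided among these near-identical copies was not tested.

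DLL3 was followed most closely over the 6 libraries by GLIPR2, COL13A1 and RASA3, with Pearson correlations of log2 CPM of 0.9981, 0.998 and 0.9979 among 12119 genes compared. These values mostly reflect the step between the 2 groups and are given as a description.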
